A study of Mus musculus with 6 samples.

Results

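The lysyl oxidase family has 5 members in the mouse, Lox and Loxl1 to Loxl4, and 4 of them could be measured here. These are copper-dependent amine oxidases that cells secrete into the matrix. They oxidise lysine residues of collagen and elastin to aldehydes, which then condense into the covalent cross-links that give skin its tensile strength. Lox and Loxl1 are made as proenzymes whose propeptide is removed outside the cell by the Bmp1 group of proteases, while Loxl2, Loxl3 and Loxl4 carry scavenger receptor cysteine-rich domains. Dermal fibroblasts are a main source, and keratinocytes also make members of the family.

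Expression was measured on 6 arrays of cultured primary keratinocytes from wild-type CD1 mice, kept in low-calcium medium. In 3 cultures a retrovirus delivered caNFATc1, a human NFATc1 whose autoinhibitory domain is mutated so that it is constantly active, and in 3 vector control cultures the retrovirus was empty MSCV. NFATc1 is a transcription factor normally brought to the nucleus by calcineurin, so the model bypasses that signal, and the retroviral construct, not the cells' own gene, sets its amount. The titles number the arrays of each group 1 to 3, and the 2 arrays with the same number are called a pair below.

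The family was chosen by its gene symbols with the difference between the groups already known, so the members' values are given as a description, without a test. A member counted as measured if a row of the deposited table was annotated to its symbol and to no other. Lox (Entrez Gene 16948), Loxl1 (16949) and Loxl3 (16950) had 1 row each and Loxl4 (67573) had 2, whose mean was used. The row for Loxl2 is shared with a predicted gene and was not used. The series held 19935 genes measured in this way. Each value is a log2 value relative to the median of its row over the 6 arrays, so values compare arrays within a gene and say nothing of which gene is more abundant. In such data fewer cells with a transcript and less of it per cell cannot be told apart.

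Loxl3 was far higher in caNFATc1 cells, Lox was moderately higher, Loxl4 slightly higher and Loxl1 nearly level. Of these, 3 of the 4 measured members were higher in caNFATc1 cells in each of the 3 pairs, against 21.6% of all genes. In 1 of the 4, Loxl3, the lowest caNFATc1 array lay above the highest control array, as it did in 9.64% of all genes.

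Loxl3, a family member that acts on collagen and is needed for palate and spine development, had the widest separation. Its control values were -1.30, -1.80 and -1.45 in replicates 1, 2 and 3, and its caNFATc1 values were 1.30, 1.31 and 1.71. The groups stood 2.60 log2 units apart at their closest, while the range within the controls was 0.50 and within the caNFATc1 arrays 0.41. The differences in pairs 1, 2 and 3 were 2.60, 3.11 and 3.16, with a mean of 2.96 ± 0.31 (SD, n = 3 pairs), or 7.77-fold. This was the 8th highest mean difference of the 19935 genes.

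Lox, the founding enzyme of the family, moved less but very evenly. Its control values were 0.03, -0.81 and -0.26, and its caNFATc1 values were 0.93, -0.03 and 0.59. The groups overlapped, because caNFATc1 replicate 2 lay below control replicate 1. Within pairs the differences were 0.90, 0.78 and 0.85, with a mean of 0.84 ± 0.06 (SD, n = 3 pairs), or 1.79-fold. The spread between cultures of the same group was several times wider, with an SD of 0.43 in the controls and 0.49 in the caNFATc1 arrays. Replicate 1 was the highest and replicate 2 the lowest of Lox in both groups. The SD among the controls exceeded that of 95.8% of all genes.

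Loxl4 differed by 0.34 ± 0.24 (SD, n = 3 pairs), or 1.27-fold. Its control values were -0.11, -0.32 and -0.03 and its caNFATc1 values -0.04, 0.16 and 0.46, so that caNFATc1 replicate 1 fell among the controls. Pairs 2 and 3 differed by 0.47 and 0.48, and pair 1 by 0.07. The 2 rows for this gene gave the same picture in pairs 2 and 3, with differences of 0.47 and 0.48 in each row. In pair 1 they disagreed in sign, with 0.26 in one row and -0.13 in the other.

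Loxl1, the member tied most closely to elastin, was -0.01, 0.01 and 0.22 in the controls and -0.01, 0.03 and -0.02 in the caNFATc1 arrays. Its mean difference of -0.07 ± 0.14 (SD, n = 3 pairs) was smaller than its spread. The differences in pairs 1 and 2 were 0.0005 and 0.02 and that in pair 3 was -0.24, where the control was the highest of the 6 arrays. Without replicate 3 the mean was 0.01.

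**Figure D1:**
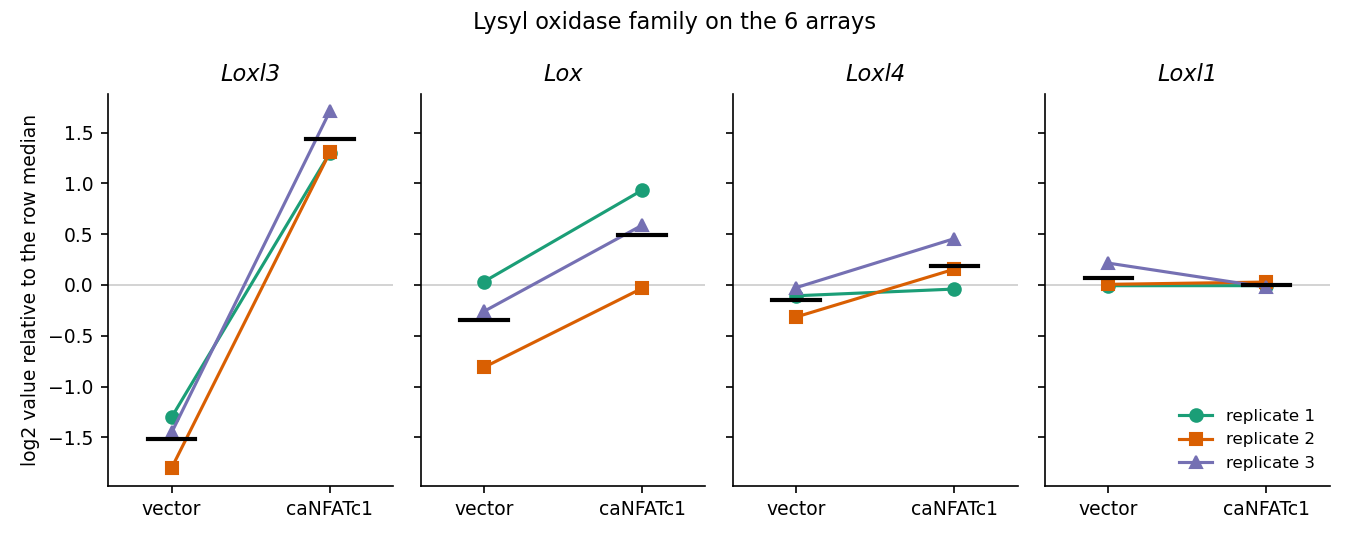
Log2 value relative to the row median (y axis) of the 4 measured family members in vector control and caNFATc1 cells (x axis). Each point is 1 array, lines join arrays of the same replicate number and black bars are group means; the Loxl3 groups lie 2.60 apart, while the Lox lines run in parallel from different starting values.

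Set against each other within pairs, the difference of Loxl3 exceeded that of Loxl4 by 2.62 ± 0.07 (SD, n = 3 pairs). Lox minus Loxl3 gave -2.11 ± 0.36 and Loxl1 minus Loxl3 gave -3.03 ± 0.40. The difference of Lox exceeded that of Loxl4 by 0.50 ± 0.29 and that of Loxl1 by 0.91 ± 0.17. Loxl4 and Loxl1 were the closest neighbours in this order, and Loxl1 minus Loxl4 was -0.07, -0.45 and -0.72 in pairs 1, 2 and 3. Every one of these steps had the same sign in the 3 pairs.

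The arrays as a whole were closely scaled, with medians over all rows between -0.01 and 0.02. Arrays with equal replicate numbers deviated together from their group means over all genes (r = 0.71, 0.61 and 0.57 for replicates 1, 2 and 3). Replicate 1 stood apart in both groups, with Xist, the RNA of the inactive X chromosome, at least 5.97 log2 units below the other arrays. Without replicate 1 the mean differences were 3.14 for Loxl3, 0.81 for Lox, 0.48 for Loxl4 and -0.11 for Loxl1. Rcan1, a known NFAT target that encodes a calcineurin inhibitor, was used as a check of the labels and rose by 3.38 (limma adjusted p = 0.0113). The mouse Nfatc1 row differed by 0.04, and whether it detects the human transgene was not tested.

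The other genes of the pathway were compared in a test over all 19935 genes, limma's moderated test with Benjamini-Hochberg adjustment, and a gene is called if its adjusted p is under 0.05. Without the replicate number 0.206% of all genes were called higher and 0.0100% lower. With the replicate number as a block, which compares arrays within pairs, these shares were 3.73% and 2.38%. Of 149 measured pathway genes, 2 were called higher and 0 lower in the fit without the block, where 26 (17.4%) had an unadjusted p under 0.05. Over all genes that share was 12.7% without the block and 21.5% with it, and the list counts below are to be read against it. In the blocked fit 18 (12.1%) were called higher and 3 (2.01%) lower. The median difference over the 149 genes was 0.02, against -0.01 over all genes. The genes that rose were spread over several steps of the pathway. The caNFATc1 arrays lay wholly above the controls in 22 of the 149 genes (14.8%) and wholly below them in 8 (5.37%), against 9.64% and 9.09% of all genes.

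Among the proteins that activate lysyl oxidases or hold them at the collagen fibre, Fmod and Postn rose. Fmod encodes fibromodulin, a collagen-binding proteoglycan that can bring lysyl oxidase to its cross-linking sites. It was -2.26, -1.96 and -1.96 in the controls and 2.25, 1.96 and 3.30 in caNFATc1 cells, a rise of 4.56 ± 0.24 (SE with the block, limma adjusted p = 0.0210 without and 0.00307 with the block). Postn encodes periostin, which binds Bmp1 and fibronectin and promotes the activation of lysyl oxidase. It was -1.86, -3.03 and -1.68 in the controls and 1.98, 1.68 and 1.92 in caNFATc1 cells, a rise of 4.05 ± 0.21 (limma adjusted p = 0.0276 without and 0.00307 with the block). In the fit without the block the Fmod call was lost when any 1 pair was left out (0.0712 to 0.308), and the Postn call when replicate 1 or replicate 3 was (0.0851 and 0.308). These 2 genes were the only calls among 13 measured members of the list in either fit, and the list's median difference was 0.03. The protease gene Bmp1, which cleaves the propeptide, differed by 0.04 and the fibronectin gene Fn1 by 0.03. The procollagen protease enhancer gene Pcolce differed by 0.05 and Fbln5, which tethers Loxl1 to elastic fibres, by 0.20. Of the related protease and adhesion genes, Tll1 differed by -0.58, Pcolce2 by -0.42 and Thbs1 by 0.99, with limma adjusted p between 0.0959 and 0.294 with the block. With the block Pcolce2 was called lower and Thbs1 higher when replicate 3 was left out, and Tll1 lower when replicate 2 was left out. Efemp2 was not analysed here.

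Lysyl oxidases receive their copper in the secretory pathway from the pump Atp7a. Atp7a was -1.09, -0.33 and -0.63 in the controls and 1.12, 0.33 and 0.57 in caNFATc1 cells, so the groups did not overlap. The differences were 2.21, 0.66 and 1.20 in pairs 1, 2 and 3, with a mean of 1.36 ± 0.28 (SE with the block), just short of a call (limma adjusted p = 0.05002 with the block and 0.118 without). With the block it was called higher when any 1 pair was left out, and it was called after quantile normalization of the arrays (adjusted p = 0.0365 without and 0.0196 with the block). The copper chaperone gene Atox1, which hands copper to Atp7a, differed by 0.32 and the uptake channel gene Slc31a1 by -0.10. The copper-storing metallothionein genes Mt1 and Mt2 differed by 0.43 and 0.24 and did not pass, though Mt1 was called higher with the block and without replicate 1. The metalloreductase gene Steap3 fell by 0.38 ± 0.08 (limma adjusted p = 0.0493 with the block), the only call among 14 copper genes, and it was lost when any 1 pair was left out (0.0839 to 0.116).

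Collagens are the main substrates of the family. Of 11 fibrillar collagen genes, Col5a2 and Col3a1 rose with the replicate block and limma called 0 without it, with 3 at an unadjusted p under 0.05. Col5a2, a chain of the type V collagen that starts fibrils, was -0.74, -0.75 and -0.76 in the controls and 1.37, 0.74 and 1.78 in caNFATc1 cells. It rose by 2.05 ± 0.19 (limma adjusted p = 0.00859 with the block, 0.0548 without). Col3a1, the chain of type III collagen, rose by 1.20 ± 0.19 (limma adjusted p = 0.0296 with the block, 0.0862 with the block and without replicate 1). Col1a1 differed by 0.48 with a spread over pairs from -0.16 to 1.31, and Col1a2 and Col5a1 by 0.05 and -0.10. Col27a1 and Col24a1 differed by -0.21 and 0.14 without passing. Of 10 genes for basement membrane and anchoring collagens, 0 were called by limma in either fit, with 1 at an unadjusted p under 0.05 in each. Their median difference was -0.07, and it was -0.22, 0.09 and 0.05 in pairs 1, 2 and 3. Col4a1 differed by -0.06 and Col17a1, of the hemidesmosome, by 0.17. Col4a4 and Col4a3 differed by 0.64 and 0.31 and were called higher with the block when replicate 1 was left out. Col15a1 and Col4a6 differed by -0.14 and -0.12.

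Fibroblasts make these collagens, so their markers were read beside them. Of 15 fibroblast marker genes, which include Col3a1, Col1a1 and Col1a2, 1 was called higher with the replicate block (Col3a1). The sum of the 15 log2 values was -0.49, -1.01 and -0.72 in the controls and -0.47, 0.55 and 6.41 in caNFATc1 replicates 1, 2 and 3. Each caNFATc1 sum lay above each control sum, narrowly in replicate 1 and most widely in replicate 3. Col3a1 is part of these sums and was 1.33 above its paired control in replicate 1. The separation in replicate 1 rests on Col3a1, which was 0.85 there and -0.48, -0.31 and -0.44 in the controls. Without Col3a1 the sum of caNFATc1 replicate 1 would lie below each control sum. The median difference of the 15 genes was -0.10, 0.01 and 0.31 in pairs 1, 2 and 3. The receptor gene Pdgfra was higher in every pair, by 0.37, 0.65 and 1.47, without overlap between the groups, and did not pass (limma adjusted p = 0.0778 with the block). Col1a1 was 1.31 above the paired control in replicate 3. The proteoglycan genes Lum and Dcn differed by -0.01 and 0.08 over the 3 pairs, and Acta2 and Col6a3 by 0.23 and -0.25. In pair 3 alone Pdgfrb differed by 0.75, Twist2 by 0.51, Col1a2 by 0.47, Acta2 by 0.43, Dcn by 0.31 and Lum by 0.01. Only Fap (-0.06) and S100a4 (-0.10) were lower in that pair. Without replicate 3 the mean difference was 2.85 for Loxl3, 0.84 for Lox and 0.27 for Loxl4, and Col3a1 and Col5a2 were called with the block (limma adjusted p = 0.0149 and 0.00155). Leaving out replicate 3 does not set the fibroblast markers aside, as Col3a1 is itself on their list and Pdgfra was also higher in pairs 1 and 2. The part of the fibroblast markers in the family's and the collagens' values was not tested. Keratinocyte markers summed to between -1.96 and -0.48 in the controls and between -3.09 and 0.10 in caNFATc1 cells. Krt5 and Krt14 differed by 0.03 and -0.02, Dsp by 0.32, Krt15 by -0.58 and Krt10 by -0.10. Some of these markers differed far more between replicates than between groups. Dsp was -2.78 and -2.58 in the control and caNFATc1 arrays of replicate 3, and between -0.11 and 0.99 in the others. Krt15 was -1.72 and -1.81 in those of replicate 2, and between -0.04 and 1.04 in the others. Trp63, the regulator of basal keratinocytes, rose by 0.42 (limma adjusted p = 0.0444 with the block, lost when any 1 pair was left out). Sums of the melanocyte, endothelial and immune lists overlapped between groups, and limma called 0 of their 22 measured genes in either fit, with 0 at an unadjusted p under 0.05.

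Genes of the elastic fibre, the other substrate of the family, held 1 gene that rose and 1 that fell among 17. Ltbp3, which anchors latent TGF-beta in the matrix, was -0.54, -0.71 and -0.56 in the controls and 1.09, 0.54 and 1.33 in caNFATc1 cells. It rose by 1.59 ± 0.13 (limma adjusted p = 0.00604 with the block, 0.0548 without). Efemp1, which encodes fibulin-3, fell by 0.86 ± 0.11 (0.0177 with the block, 0.712 without). Its arrays overlapped, because the controls themselves ran from -0.77 to 1.08, and only the differences of -1.15, -0.83 and -0.61 within pairs show the fall. Fbln2 and Ltbp1 differed by -0.86 and -0.46 without passing, although Fbln2 was called lower with the block when replicate 1 or replicate 3 was left out. The elastin gene Eln differed by -0.14, mostly through pair 1 (-0.52), and Emilin3 by 0.43. Fbn1 was not analysed here. The list's median difference was -0.04, and it was -0.19, 0.01 and 0.07 in pairs 1, 2 and 3.

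Enzymes that prepare collagen inside the cell held the largest number of calls. Of 18 measured genes, 6 rose and 0 fell with the replicate block, 14 differed upward (47.4% of all genes did) and the median was 0.24, while limma called 0 without the block, with 3 at an unadjusted p under 0.05. Plod2 hydroxylates the telopeptide lysines that lysyl oxidase later oxidises, and so sets the type of cross-link. It was -2.13, -0.01 and 0.01 in the controls and -0.14, 1.19 and 1.61 in caNFATc1 cells. The groups overlapped, but each pair rose, by 1.99, 1.20 and 1.60 (mean 1.59 ± 0.15, limma adjusted p = 0.00859 with the block and 0.442 without). The related lysyl hydroxylase gene Plod1 rose by 0.47 ± 0.07 (0.0264 with the block), a call lost when any 1 pair was left out (0.0532 to 0.0672). The prolyl hydroxylase genes P4ha1 and P4ha2, whose product stabilises the triple helix, rose by 0.77 ± 0.12 and 0.50 ± 0.08 (limma adjusted p = 0.0293 and 0.0297 with the block). P4ha2 was not called without replicate 2 or without replicate 3 (0.0719 and 0.0680). Fkbp14, a folding enzyme of collagen, rose by 0.75 ± 0.14 (0.0389 with the block, 0.107 without replicate 1). P3h2, named here after its values were seen, was the remaining call at 0.93 ± 0.17 (limma adjusted p = 0.0397 with the block, 0.625 without). Its groups overlapped, with controls at -1.92, 0.035 and -0.035, and its call was not followed with pairs left out.

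Other enzymes cross-link or oxidise related proteins and amines. Of 12 transglutaminases, peroxidasin and sulfhydryl oxidases 11 differed downward, as did 52.6% of all genes, and the median was -0.11. Most of this came from pair 1, with list medians of -0.24, -0.02 and -0.06 in pairs 1, 2 and 3. Tgm1, which cross-links the cornified envelope, fell by 0.64 ± 0.10 (limma adjusted p = 0.0263 with the block, 0.211 without). Tgm2, the widely expressed tissue transglutaminase, differed by -0.29, and Tgm5, Tgm6 and Qsox2 by -0.26, -0.17 and 0.46 without passing. Of 10 other amine oxidases limma called 0 in either fit, with 0 at an unadjusted p under 0.05 without the block and 1 with it. Their differences ran from -0.27 to 0.04. Among them Smox, which oxidises spermine, differed by -0.27, the monoamine oxidase genes Maoa and Maob by -0.18 and -0.06, the copper amine oxidase gene Aoc2 by -0.17 and the histone demethylase gene Kdm1a by -0.07.

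**Figure D2:**
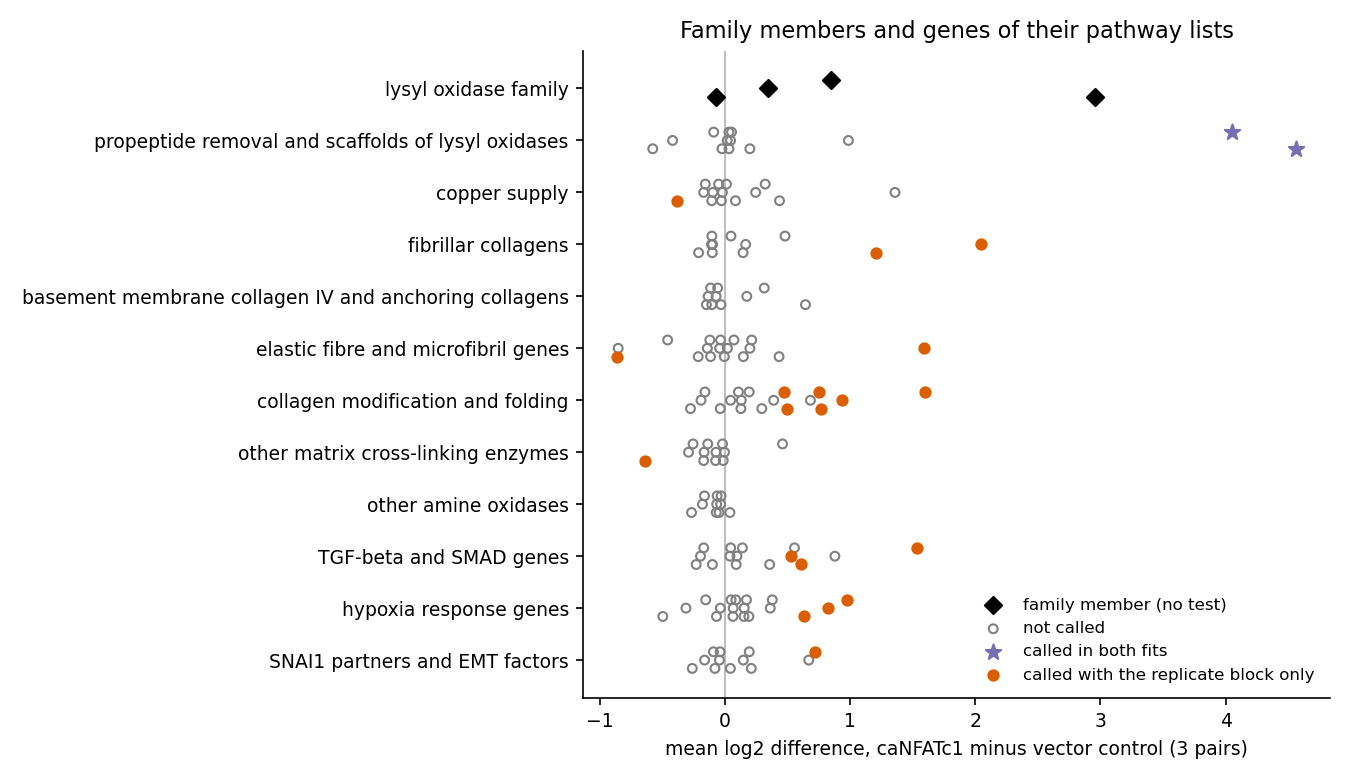
Mean log2 difference, caNFATc1 minus vector control over 3 pairs (x axis), of each family member (black diamonds, no test) and each measured gene of 11 pathway lists (y axis). Stars mark genes called in both fits, which are Fmod and Postn, filled circles genes called with the replicate block only and open circles genes not called; vertical offsets within a list carry no value.

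Signals known to raise lysyl oxidases in other cells were examined in the same way. Of 15 TGF-beta and SMAD genes, 3 rose with the replicate block, 0 fell, and limma called 0 without it, with 4 at an unadjusted p under 0.05. Ccn2, a matrix protein gene induced by TGF-beta, rose by 1.53 ± 0.17 (limma adjusted p = 0.0136 with the block). It was -0.53, -0.90 and -1.34 in the controls and 0.53, 0.65 and 0.66 in caNFATc1 cells, without overlap. The ligand gene Tgfb1 rose by 0.61 ± 0.07 (0.0132) and the receptor gene Tgfbr1 by 0.52 ± 0.09 (0.0319, not called without replicate 1 or without replicate 2, at 0.0522 and 0.0548). Tgfb3 and the SMAD repressor gene Skil differed by 0.88 and 0.36 without passing with all pairs.

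Of 18 hypoxia genes, 3 rose with the replicate block, and limma called 0 without it, with 3 at an unadjusted p under 0.05. Ndrg1 rose by 0.98 ± 0.07, the mitophagy gene Bnip3 by 0.83 ± 0.09 and the angiogenic factor gene Vegfa by 0.63 ± 0.07 (limma adjusted p = 0.00596, 0.0111 and 0.0138 with the block). Each was called with the block when any 1 pair was left out, and none of the 3 overlapped between groups. Hif1a, the oxygen-regulated factor itself, differed by 0.06, Epas1 by 0.38 and Higd1a by 0.36. Of other hypoxia targets, Slc2a1 and Car9 differed by -0.04 and 0.05, and Egln3 and Adm by -0.50 and -0.31 without passing. In all, 5 of the 18 genes (27.8%) differed downward, against 52.6% of all genes. Of 12 genes for Snai1 and related factors of the epithelial to mesenchymal transition, Zeb2 rose by 0.72 ± 0.11 (limma adjusted p = 0.0293 with the block, 0.0760 without replicate 2, and 0.0593 with the block after quantile normalization). Snai1, a partner that Loxl2 and Loxl3 can bind, differed by -0.16 and Snai2 by -0.04. Zeb1 differed by 0.67, Twist1 by 0.19 and Vim by 0.21 without passing.

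The genes whose 6 values lay closest to those of Loxl3 were found by the mean absolute difference over the arrays, as a description. Rcan1 was the nearest at 0.25, with controls at -1.44, -1.68 and -1.57 and caNFATc1 cells at 2.17, 1.44 and 1.83. Next came Tm6sf1 (0.40), the Hedgehog co-receptor gene Boc (0.40), the sodium pump subunit gene Atp1b1 (0.41), the imprinted zinc finger gene Peg3 (0.42) and the receptor-modifying gene Ramp3 (0.46). Lox had closer company, with 44 genes nearer than 0.20. The nearest was Gas6, a ligand of the TAM receptors, at 0.05, followed by the amino acid transporter gene Slc36a4 and Copz2 at 0.12, Chd3 at 0.13, Parp8 at 0.14 and Trps1 at 0.15. Gas6 was 0.05, -0.90 and -0.27 in the controls and 0.90, -0.05 and 0.73 in caNFATc1 cells. Chosen for its nearness on these 6 values, it shared with Lox the high replicate 1 and the low replicate 2 in both groups.

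**Figure D3:**
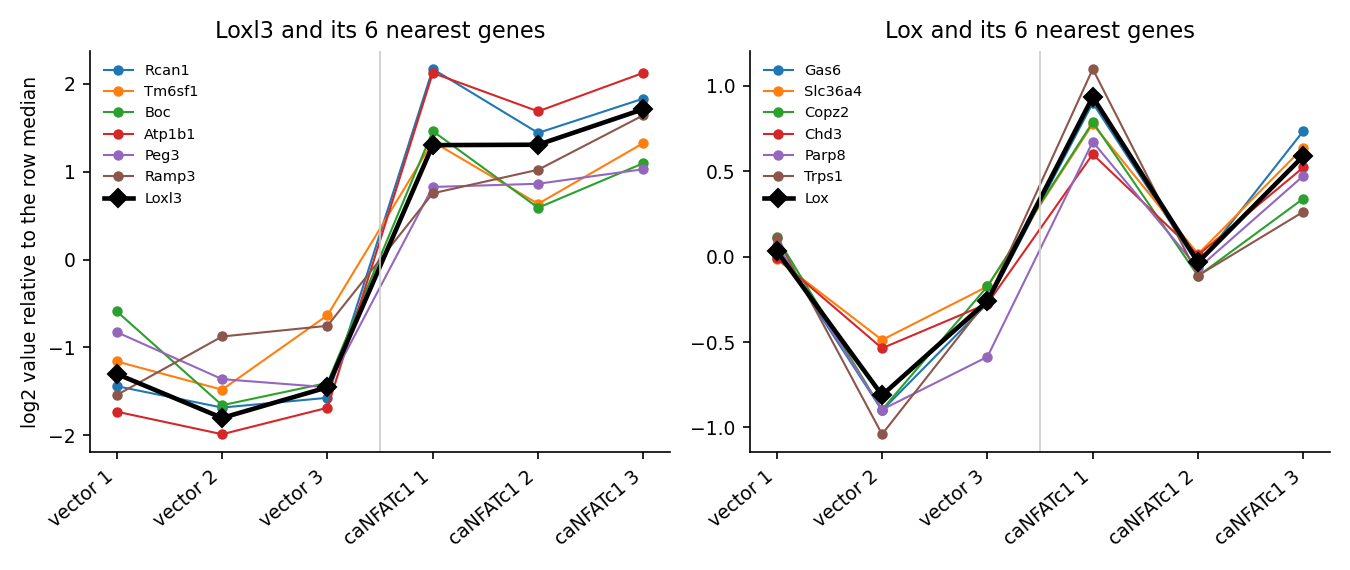
Log2 value relative to the row median (y axis) on the 6 arrays (x axis) of Loxl3 with its 6 nearest genes and of Lox with its 6 nearest genes, the member in black. In the Loxl3 panel every gene lies below 0 in the controls and above 0 in caNFATc1 cells, and in the Lox panel every gene is lowest at replicate 2 in both groups. The genes were picked on these same 6 values, so the shared shapes follow from the choice.

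The genes beside each member on its chromosome were read from the RefSeq gene table of GRCm38.p6, which is not the arrays' build. Dok1, an adaptor gene for tyrosine kinases that lies next to Loxl3, was -0.34, -0.96 and -0.82 in the controls and 0.34, 0.63 and 0.98 in caNFATc1 cells. It rose by 1.36 ± 0.21 (limma adjusted p = 0.0290 with the block, 0.0845 without, 0.0600 with the block and without replicate 2, and 0.0593 with the block after quantile normalization). On the other side Htra2, a mitochondrial protease gene that overlaps Loxl3 in the table, differed by 0.49 and the next gene, Aup1, by 0.24. Neither passed. The groups did not overlap in either gene, with gaps of 0.10 for Htra2 and 0.02 for Aup1. The caNFATc1 arrays lay wholly above the controls in 9.64% of all genes. M1ap, beyond Dok1, differed by 0.09. For Dok1, Htra2 and Loxl3 the smallest of the 3 pair differences was that of pair 1. The same held for Aup1 and Loxl4, but not for M1ap or Lox. Over all genes the median difference was -0.06, 0.02 and 0.01 in pairs 1, 2 and 3. Whether probes of the close genes Dok1, Htra2 and Loxl3 share signal was not tested. The neighbours of Lox (Ftmt, Srfbp1, Zfp474 and 1700034E13Rik) differed by between -0.02 and 0.20. Those of Loxl4 (Crtac1, R3hcc1l, Pyroxd2 and Hps1) differed by between -0.17 and 0.07, and those of Loxl1 (Pml, Stoml1, Tbc1d21 and Insyn1) by between -0.22 and 0.11. None of these 12 genes was called in either fit.

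**Figure D4:**
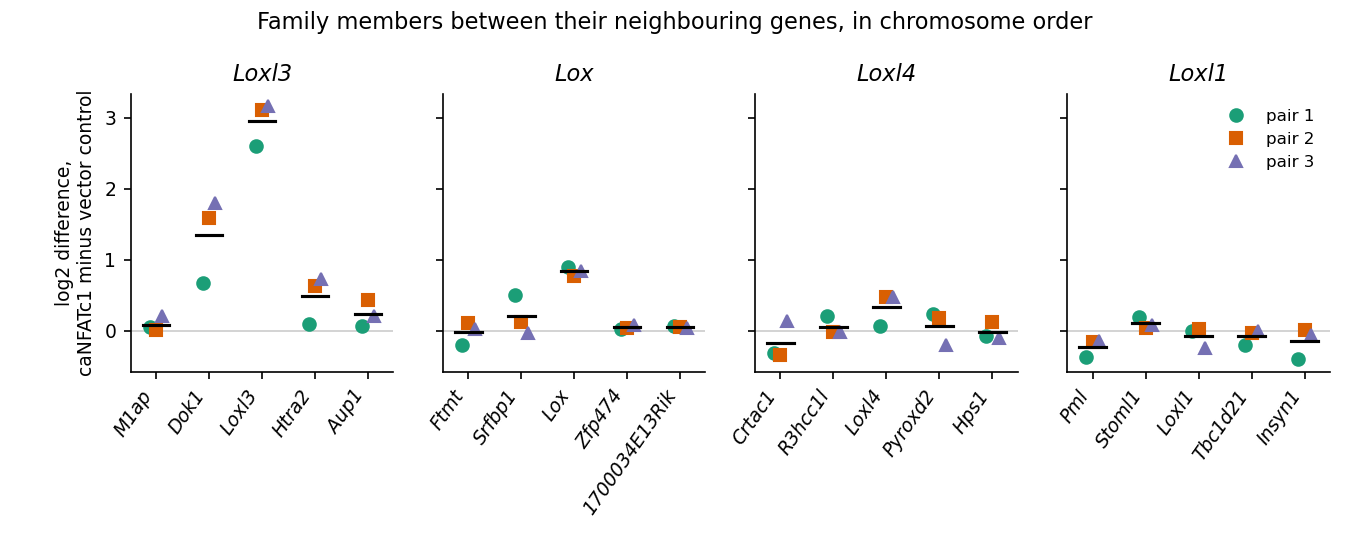
Log2 difference, caNFATc1 minus vector control (y axis), of each measured family member and the 2 nearest protein-coding genes on either side in chromosome order (x axis). Points are the 3 pairs and black bars their means. Dok1 and Htra2 flank Loxl3 with means of 1.36 and 0.49. The means for the neighbours of the other members lie between -0.22 and 0.20.

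Promoter sequence was given for 1 of the 5 members, Loxl4, and it is shown with those of Postn and Fmod, the pathway genes called in both fits. Each window is the 250 bases before the RefSeq gene start in GRCm38.p6, read along the gene's strand, 5′ to 3′. Loxl4 lies at chr19:42612807-42613056 on the minus strand, Postn at chr3:54359017-54359266 on the plus strand and Fmod at chr1:134037004-134037253 on the plus strand. The windows were searched on both strands for GGAAA, the core that NFAT proteins bind, and matches would stand in capitals.

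Loxl4: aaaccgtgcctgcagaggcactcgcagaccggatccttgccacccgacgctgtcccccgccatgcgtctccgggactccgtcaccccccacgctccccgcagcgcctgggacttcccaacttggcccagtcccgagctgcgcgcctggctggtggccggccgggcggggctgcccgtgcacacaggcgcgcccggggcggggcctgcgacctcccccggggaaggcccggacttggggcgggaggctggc

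Postn: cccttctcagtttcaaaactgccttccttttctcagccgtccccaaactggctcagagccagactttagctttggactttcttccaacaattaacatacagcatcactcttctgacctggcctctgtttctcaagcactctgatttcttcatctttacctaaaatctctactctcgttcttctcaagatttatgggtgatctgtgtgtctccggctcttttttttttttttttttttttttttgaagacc

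Fmod: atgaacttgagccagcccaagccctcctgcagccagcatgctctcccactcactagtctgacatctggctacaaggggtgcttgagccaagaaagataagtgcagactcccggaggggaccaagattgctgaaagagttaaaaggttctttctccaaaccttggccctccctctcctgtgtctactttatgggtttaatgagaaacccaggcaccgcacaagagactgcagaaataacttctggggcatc

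Matches numbered 0 in each of the 3 windows, and 55.6% of all 32851 windows of this length hold at least 1. This says only that these letters do not occur in these windows.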

How the data were processed

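Total RNA of 6 keratinocyte cultures was measured on single-colour arrays with biotin-labelled cDNA. The authors deposited log2 values; they were made with RMA and rest on mm8, per the submitters' processing notes, and the software version is not given in the sources used here. Every row's median over the arrays was 0 within 1e-06, so brightness is lost, no filter on dim rows could be run and precision rests on the number of arrays. Rows annotated to 1 symbol (21780 of 28815) were averaged per gene. Groups and replicate numbers came from the titles. The series design calls the replicates biological. Without the block, p-values measure the spread between cultures of a group. With the block, they measure the spread of the differences within pairs. Limma 3.58.1 (R 4.3.3) was fitted to all 19935 genes with group as the term, and again with the replicate number as a block, and was checked on simulated data. Same-numbered arrays correlated at 0.57 to 0.71 in their deviations, each above the limit of 0.1, so they were treated as pairs; differently numbered arrays correlated at -0.60 to 0.18, with control replicate 2 and caNFATc1 replicate 3 the only such pair above the limit. SE is limma's moderated standard error in the block fit. The members, gene lists and tests were chosen with earlier results of these data known. Named genes are all members, up to 5 per list with the lowest p in the block fit, a fixed set, the 6 nearest to Loxl3 and to Lox, and chromosomal neighbours. Genes named outside this rule were chosen after their values were seen. Ctgf was matched as Ccn2. Adamts2, Efemp2, Fbn1, Mfap1a, Fkbp10, Paox, Il4i1 and Trdc, and the Loxl2 row, were among the listed items not analysed here. Alternatives were leaving out arrays or pairs, other scalings, the median of a gene's rows, single rows and robust moderation.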

Additional observations from a re-analysis of the deposited data

How the results depend on the processing

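The number of calls changed with the pairing. With the replicate block limma called 744 genes higher and 475 lower over all genes, against 41 and 2 without it. Without vector control replicate 3 it called 0 higher, and without caNFATc1 replicate 2 it called 74 higher and 9 lower, with 0 lower in other settings that left out 1 array. With the block and without replicate 1, 2 or 3 it called 509, 513 and 605 higher and 202, 230 and 481 lower. With quantile normalization it called 149 higher and 20 lower, and fitting each row on its own gave 1 lower. Combined with the block, a choice made after seeing the data, array median subtraction gave 723 and 434 and quantile normalization 657 and 373. Pathway genes called higher numbered 18 with the block, 18 to 19 with it in the settings above, 4 with quantile normalization alone and 0 to 5 when 1 array was left out. Those called lower numbered 3 to 4 with the block. By list, the block settings called 4 to 6 genes higher for collagen modification, 2 to 4 for TGF-beta, 3 for hypoxia, 1 to 2 for fibrillar collagens and 1 for elastic fibres. Without the block Postn lost its call after quantile normalization (adjusted p = 0.0654). With 1 unpaired array left out the Lox difference ran from 0.61 to 1.11. The differences of Loxl3, Loxl4 and Loxl1 moved by less than their SD over pairs in every setting run, though that of Loxl1 changed sign. Of 115 tested genes that the naming rule covers, 32 changed sign in at least 1 setting, and none of these was called in either fit. The planned filter on low values could not be run on values centred by row.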
